A study of Mus musculus with 6 samples.

Results

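The genes described here are 10 interferon-inducible GTPase genes of the mouse heart: *Igtp*, *Irgm1*, *Irgm2*, *Iigp1*, *Gm12250*, *Tgtp1* and *Tgtp2* of the immunity-related GTPase (IRG) family, and *Gbp2*, *Gbp3* and *Gbp7* of the guanylate-binding protein (GBP) family. They were chosen by name with the difference between WD + Tributyrin and WD + Vehicle mice already known, so that difference is given for them as a description and without a test. They are 10 of 54232 gene identifiers in the count data and 10 of 14133 genes that passed the filter on low counts. All 10 had counts in every library, and 10 of 10 passed the filter.

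Interferon-inducible GTPases are dynamin-like proteins of cell-autonomous immunity, and interferon gamma is their strongest known inducer. Interferons act through receptors and JAK kinases on transcription factors that bind GAS and ISRE elements in the promoters of target genes. The IRGM proteins sit on the cell's own membranes and hold the effector IRG proteins in an inactive, GDP-bound state. The effector IRG and GBP proteins assemble on the vacuoles that enclose intracellular parasites and bacteria and help to break them open, and autophagy proteins direct them there. In heart tissue these transcripts can come from cardiomyocytes, endothelial cells, fibroblasts and macrophages.

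RNA from heart ventricle was sequenced in 3 mice per group, all wild-type C57BL/6J mice fed western diet (WD), a high-fat, high-sucrose diet, for 15 weeks. One group was then needle-fed Tributyrin, a triglyceride of the short-chain fatty acid butyrate, at 5 g/kg body weight in alternating periods on and off over 3 weeks, and the other received vehicle, which the labels call PBS. The study used male and female mice, and which sex and age each of these 6 mice had is not given in the sources used here. Both groups carried the diet, so the comparison addresses Tributyrin in WD-fed mice, and a lean group was not analysed here.

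The libraries held 20369746 to 32734485 counts on genes, of which mitochondrial transcripts took 23.6% to 28.8%. Ventricular cardiomyocyte markers summed to 53803 to 59467 CPM, counts scaled to the library total, in the 6 libraries. By the quasi-likelihood test of edgeR with p adjusted by Benjamini-Hochberg, 0 of 14133 genes (percent called 0) passed a false discovery rate (FDR) of 10%, the smallest adjusted p was 0.999, and 600 genes had an unadjusted p under 0.05. limma-voom called 0 genes and DESeq2 called 11. The sum of 6 atrial markers stood apart in some libraries, at 182 and 172 CPM in vehicle replicates 1 and 2, 53.8 CPM in vehicle replicate 3, and 31.04, 64.4 and 46.3 CPM in Tributyrin replicates 1, 2 and 3. The markers did not all go together. *Nppa* was highest in vehicle replicate 3, with 842 reads, where *Sln*, *Myl7*, *Myl4* and *Mybphl* were lowest, and *Bmp10* had at most 1 read in a library. Their sum, which was also the covariate, hides this. The 5 atrial markers that could be tested were lower with Tributyrin, with a median log2 fold change of -1.94, and their part in the results on the GTPase genes was not tested beyond the covariate given with them. These are bulk samples, in which fewer cells of a type and less RNA per cell cannot be told apart, and SDs measure the spread between these 6 mice.

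Promoter sequence was examined first, because it is the input through which interferon signals reach these genes. RefSeq (GRCm38.p6) start-site windows, from 250 bases before to 50 bases after the start, were given for 9 of the 10 genes, *Iigp1* being the one without an entry. The ISRE, searched on both strands as GAAA, any 2 bases and GAAA, was found in 9 of these 9 genes, against 3.99% of 27025 genes with a window. The GAS element, searched as TTC, any 3 bases and GAA, which reads the same on both strands, was found in 6 of 9 genes, against 9.55% of all genes. Both motifs were present in *Igtp*, *Irgm2*, *Gm12250*, *Tgtp1*, *Tgtp2* and *Gbp7*, against 0.614% of all genes, or 166 of them. In 4 of the genes the GAS element was followed after 2 bases by the ISRE, an arrangement that occurred in 5 of 27025 genes (0.0185%), the other being the IRG gene *Gm12185*. These stretches are printed 5′ to 3′ along the gene, with both motifs in capitals, to show how closely the 4 stretches match.
Igtp, chr11:58199499-58199543, plus strand: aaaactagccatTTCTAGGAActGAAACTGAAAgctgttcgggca
Irgm2, chr11:58214890-58214934, plus strand: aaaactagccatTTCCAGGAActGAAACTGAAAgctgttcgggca
Tgtp1, chr11:48992302-48992346, minus strand: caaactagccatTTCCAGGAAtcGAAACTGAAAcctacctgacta
Tgtp2, chr11:49064261-49064305, minus strand: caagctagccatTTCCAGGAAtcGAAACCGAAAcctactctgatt

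The stretch of *Igtp* starts 57 bases before its start site, that of *Irgm2* 87 bases before, and those of *Tgtp1* and *Tgtp2* 100 and 93 bases before. The other promoters are shown because they carry ISREs in other arrangements: *Gm12250* has 2 ISREs, here on the opposite strand, around 1 GAS element, *Gbp7* has 2 GAS elements and 1 ISRE, and *Irgm1*, *Gbp2* and *Gbp3* have ISREs (2, 1 and 2) without a GAS element. Where 2 ISREs overlap, the capitals run through both.
Gm12250, chr11:58183740-58183818, plus strand: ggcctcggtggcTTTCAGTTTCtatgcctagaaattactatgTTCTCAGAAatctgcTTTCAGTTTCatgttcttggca
Gbp7, chr3:142530218-142530304, plus strand: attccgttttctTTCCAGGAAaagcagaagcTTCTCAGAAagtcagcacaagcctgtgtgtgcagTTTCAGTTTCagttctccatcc
Gbp3, chr3:142559988-142560025, plus strand: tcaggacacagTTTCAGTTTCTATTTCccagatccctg
Irgm1, chr11:48871428-48871457, minus strand: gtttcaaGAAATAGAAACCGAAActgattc
Gbp2, chr3:142620594-142620623, plus strand: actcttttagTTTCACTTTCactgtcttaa

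A match is a description of the letters in these windows, not a bound site or a cause. No GAS element overlapped an ISRE. The windows of *Irgm1* and *Gbp2* are shown over 30 bases since GENCODE places exonic sequence there.

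In the GENCODE M21 annotation of GRCm38, the IRG genes lie in 2 regions of chromosome 11, apart from *Iigp1* on chromosome 18, and the GBP genes lie on chromosome 3. *Igtp* (chr11:58199556-58207591) and *Irgm2* (chr11:58199618-58222782) are both on the plus strand and share 162 exonic bases, so reads there cannot be given to either. RefSeq starts *Irgm2* at 58214977, downstream of *Igtp*. *Gm12250* (chr11:58187739-58189012, plus strand) is annotated in GENCODE as a processed pseudogene of 1274 exonic bases. RefSeq lists it as a protein-coding gene, also named Irgb10, from 58183843 to 58190198, so the counts may cover only a part of its transcript. *Tgtp1* (chr11:48985327-48994172) and *Tgtp2* (chr11:49057194-49064206) are near-identical genes on the minus strand, and *Irgm1* (chr11:48861968-48871683, minus strand) lies in the same region with other IRG genes between. *Gbp7*, *Gbp3* and *Gbp2* lie on the plus strand, with *Gbp2b* between the last pair, at chr3:142530342-142550149, chr3:142560026-142573209 and chr3:142620602-142638008, and *Iigp1* is at chr18:60376027-60392634 on the plus strand.

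How far a single gene can be read depends on how much of its sequence is its own. Of the 50-base stretches of their exons, the length of the reads, 96.3% to 100% occurred in no other gene for *Irgm1*, *Iigp1*, *Gm12250*, *Gbp2* and *Gbp3*. The share was 92.2% for *Irgm2*, 88.2% for *Igtp* and 87.3% for *Gbp7*, which shares 637 exonic bases with *Gm43802*. For *Tgtp1* it was 18.8%, with 79.4% of its stretches found also in *Tgtp2*, and for *Tgtp2* it was 13.4%. How the authors counted reads with several alignments is not given in the sources used here, so the values of *Tgtp1* and *Tgtp2* are uncertain one by one.

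**Figure D1:**
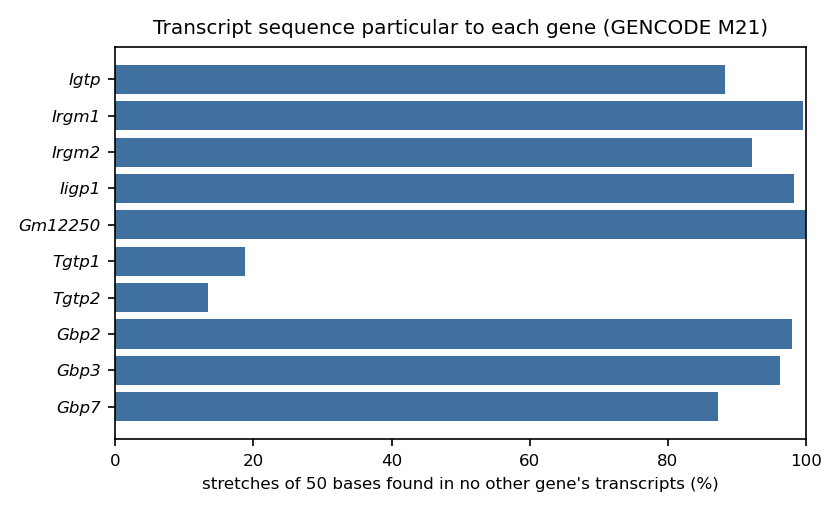
Share of 50-base stretches of each gene's exons (percent, GENCODE M21) that occur in no other annotated gene, per gene. *Tgtp1* and *Tgtp2* stand at 18.8% and 13.4%, and every other gene of the 10 is at 87.3% or more.

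Levels were moderate. In RPKM, counts scaled by exon length and library size, the mean over the 6 libraries was 6.39 for *Igtp*, at the 69.6th percentile of the genes tested, 4.90 for *Irgm2*, 4.85 for *Gbp2* and 4.24 for *Iigp1*. *Irgm1* followed at 2.71 RPKM, *Gbp3* and *Gbp7* both at 2.03, *Gm12250* at 0.998, *Tgtp2* at 0.864 and *Tgtp1* at 0.275, the 10.1th percentile. Compared within each library, *Igtp* was above *Irgm2*, *Iigp1* above *Irgm1*, *Irgm1* above *Gbp3*, *Gbp7* above *Gm12250* and *Tgtp2* above *Tgtp1* in 6 of 6 libraries. *Gbp2* was above *Iigp1* in 5 of 6, *Irgm2* was above *Gbp2* in 1 of 6, and *Gbp3* and *Gbp7*, like *Gm12250* and *Tgtp2*, were split at 3 of 6, so the order of these last pairs was not the same in every mouse. The levels of *Igtp* and *Irgm2* depend on how shared reads were given out, and those of *Tgtp1* and *Tgtp2* on near-identical sequence.

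Of the regulators, *Igtp*, also named Irgm3, which holds effector IRG proteins inactive on lipid droplets and the endoplasmic reticulum, had 245, 279.9 and 298 normalized counts (counts divided by a DESeq2 size factor per library) in the mice given vehicle and 417, 474 and 322 in the mice given Tributyrin. Each Tributyrin mouse lay above each vehicle mouse, with replicate 3 the closest to the vehicle group. The mean went from 274 ± 26.9 (SD, n = 3) to 405 ± 76.7 (SD, n = 3), 47.4% higher. The log2 fold change of 0.57 had a standard error of 0.147. When single mice were left out it ran from 0.43 to 0.71, and with the atrial markers as a covariate it was 0.51.

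*Irgm2*, a regulator found mainly on the Golgi and on vesicles, had 364, 439.7 and 447 normalized counts with vehicle and 485, 704 and 413 with Tributyrin. The groups overlapped, since Tributyrin replicate 3 lay below 2 of the vehicle mice, and replicate 2 was far above every other mouse. Its log2 fold change was 0.36 (standard error 0.178), and 0.11 without Tributyrin replicate 2. Read together, since they share exonic bases, *Igtp* and *Irgm2* had a summed log2 fold change of 0.45, with a standard error of 0.154. The sum was 691 ± 72.4 normalized counts in the vehicle mice (SD, n = 3) and 939 ± 224 in the Tributyrin mice (SD, n = 3). The groups overlapped in this sum, and *Igtp* made up 38.9% to 46.2% of it.

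*Irgm1*, the regulator known for its part in autophagy and in resistance to mycobacteria, had 335, 424 and 407.5 normalized counts with vehicle and 397, 509 and 407 with Tributyrin. The groups overlapped, with vehicle replicate 1 lowest and Tributyrin replicate 2 highest. Its log2 fold change was 0.17 (standard error 0.130), and 0.05 without Tributyrin replicate 2.

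Among the effectors, *Gm12250* (Irgb10), which works with GBP proteins on bacteria and parasite vacuoles, showed the largest difference of the 10 genes. The normalized counts were 22.9, 17.8 and 14.9 with vehicle and 43.0, 64.0 and 37.9 with Tributyrin. The lowest Tributyrin mouse lay above the highest vehicle mouse. The mean went from 18.5 ± 4.03 (SD, n = 3) to 48.3 ± 13.8 (SD, n = 3), 160.4% higher. The log2 fold change of 1.38, with a standard error of 0.305, ran from 1.12 to 1.55 with single mice left out and was 1.90 with the atrial markers as a covariate. These are small numbers, 12 to 70 reads a library, and the counting error alone, at the mean count, is a relative SD of 17.1%.

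*Iigp1* (Irga6), the effector that loads on the vacuole of *Toxoplasma*, had 582, 500.9 and 557 normalized counts with vehicle and 1055, 725 and 471 with Tributyrin. Tributyrin replicate 1 was the highest and Tributyrin replicate 3 the lowest of the 6 mice, so the treated group enclosed the vehicle group. The vehicle mean was 547 ± 41.5 (SD, n = 3) and the Tributyrin mean 751 ± 292 (SD, n = 3), and the log2 fold change was 0.47 with a standard error of 0.225. The value was 0.14 without Tributyrin replicate 1, 0.71 without Tributyrin replicate 3, and 0.22 with the atrial markers as a covariate.

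*Tgtp1* and *Tgtp2* encode nearly the same effector, Irgb6. *Tgtp1* had 14.6, 14.7 and 24.8 normalized counts with vehicle and 28.99, 32.9 and 22.9 with Tributyrin, and *Tgtp2* had 53.0, 81.4 and 69.6 with vehicle and 82.3, 65.8 and 48.2 with Tributyrin. The groups overlapped in both genes, with Tributyrin replicate 3 below vehicle replicate 3 each time. *Tgtp1* had a log2 fold change of 0.68 with a standard error of 0.324, and *Tgtp2* one of -0.05 with a standard error of 0.244. Summed, which does not depend on how reads were split between them, the pair differed by 0.13 on the log2 scale with a standard error of 0.215, from 86.0 ± 16.03 to 93.7 ± 20.5 normalized counts (SD, n = 3 each), and *Tgtp1* made up 15.3% to 33.3% of the sum. With the atrial markers as a covariate the log2 fold change of *Tgtp1* was 0.31. The sign of *Tgtp2* was positive without vehicle replicate 2 (0.11) or Tributyrin replicate 3 (0.12).

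The 3 GBP genes differed little between the groups. *Gbp2*, which coats parasite vacuoles and bacteria, had 296, 331 and 316 normalized counts with vehicle and 332, 344 and 306 with Tributyrin, and its log2 fold change of 0.06, with a standard error of 0.101, was -0.01 with library size alone as the scaling. *Gbp3* had 159, 199 and 186 with vehicle and 179, 185 and 139 with Tributyrin, and its log2 fold change of -0.11, with a standard error of 0.149, was 0.01 without Tributyrin replicate 3. The groups overlapped in both, and Tributyrin replicate 3 was the lowest of the 6 mice for *Gbp3*.

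*Gbp7* had 247, 317 and 344 normalized counts with vehicle and 321, 342 and 228 with Tributyrin. Here too Tributyrin replicate 3 was lowest, followed by vehicle replicate 1. Its log2 fold change was -0.02 (standard error 0.169), with a positive sign when vehicle replicate 2 (0.02), vehicle replicate 3 (0.08) or Tributyrin replicate 3 (0.14) was left out.

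**Figure D2:**
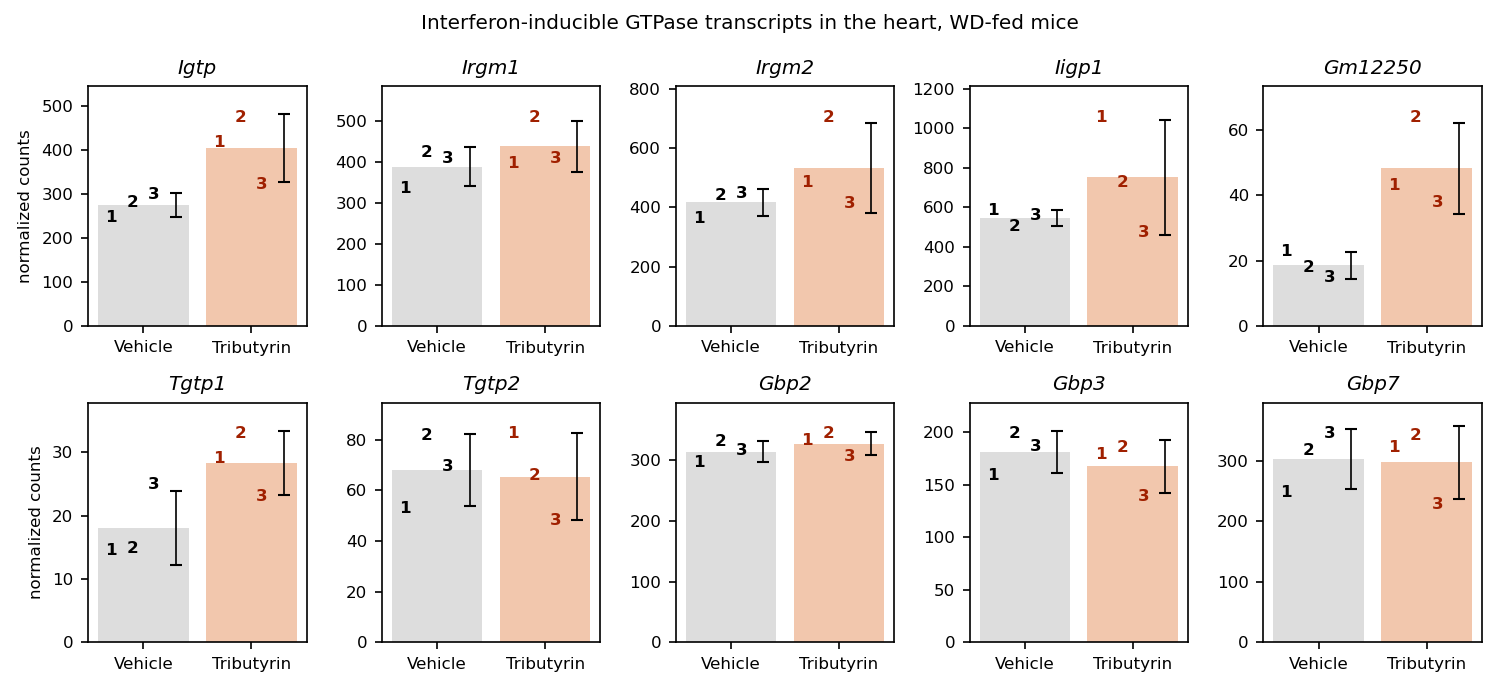
Normalized counts of the 10 genes in each mouse, in a panel per gene with its own axis from 0. Bars are group means, error bars the SD (n = 3) and the numerals the replicates. In *Igtp* and *Gm12250* each Tributyrin mouse lies above each vehicle mouse, and in the other 8 genes the groups overlap.

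Counted over the 10 genes, 7 had a positive log2 fold change and 3 a negative one, where 49.6% of all genes tested were positive. Their median was 0.27, against -0.0013 over all genes tested. With library size alone 6 were positive, and without Tributyrin replicate 3 all 10 were. The median was 0.08 without Tributyrin replicate 2. The groups did not overlap in 2 of 10, both higher with Tributyrin, and the share of all genes tested with groups apart in that direction was 4.26%. Groups apart with the lower values in Tributyrin were 0 of 10, against 4.65%, and apart either way 2 of 10, against 8.91%. Since the genes were chosen with this contrast known, nothing is read from these shares. Among the 10, 0 passed an FDR of 10% in edgeR's test, and 2 had an unadjusted p under 0.05, both higher, where the share of all genes was 1.97% higher and 2.28% lower. DESeq2 called none of the 10 (0.0835% of genes), and edgeR, when genes with low counts were kept, called 3, *Igtp*, *Iigp1* and *Gm12250* (0.653% of genes). The rule for choosing the genes used this contrast, and nothing is read from these counts.

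**Figure D3:**
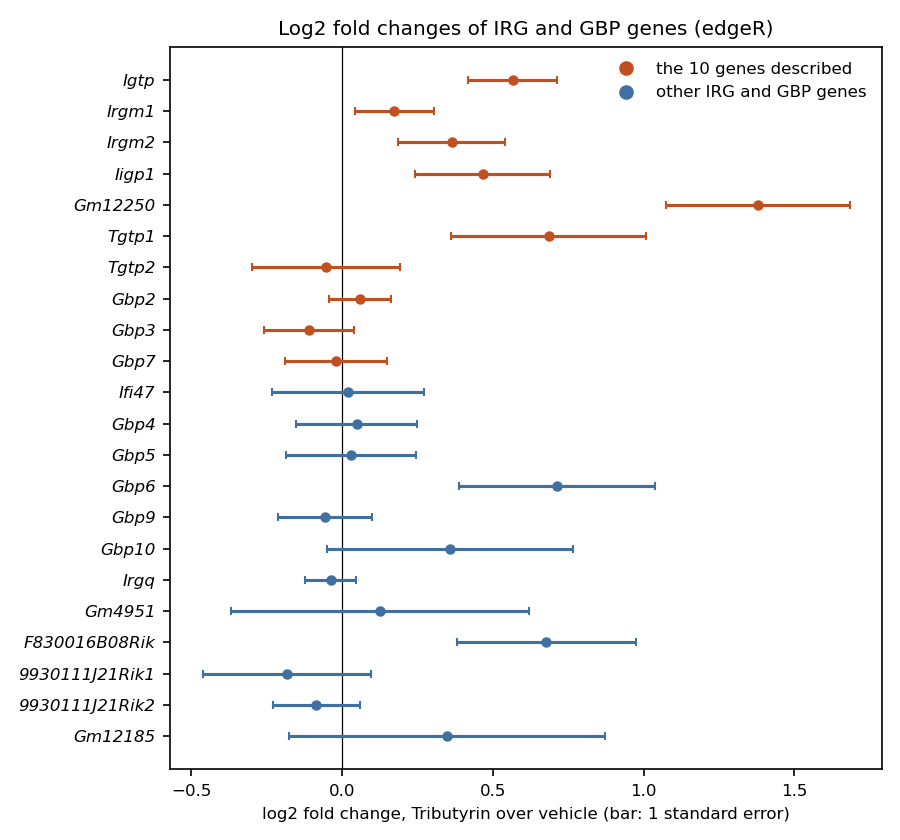
Log2 fold change, Tributyrin over vehicle, for the 10 genes and the other IRG and GBP genes tested. Points are edgeR estimates and bars 1 standard error, with *Gm12250* at 1.38 the highest and *9930111J21Rik1* at -0.18 the lowest. Of the exon stretches of *9930111J21Rik1*, 16.79% occur in no other gene, so its value is uncertain on its own.

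Apart from the group difference, the mice of a group were unlike each other. This was measured by removing the group means from the log2 values. The genes were chosen with results of these mice known, so these values too are a description. The SD within groups was 0.42 for *Iigp1*, at the 98.2th percentile of the 500 genes nearest in level, 0.30 for *Irgm2* (95.8th), 0.28 for *Gbp7* (93.6th) and 0.23 for *Igtp* (86.8th). It was 0.19 for *Irgm1* (79.0th), 0.34 for *Tgtp2* (76.8th), 0.20 for *Gbp3* (64.4th), 0.34 for *Gm12250* (47.4th), 0.33 for *Tgtp1* (36.8th) and 0.08 for *Gbp2* (17.4th). The median over all genes tested was 0.15, and the percentiles show that the spread of *Gm12250* and *Tgtp1* was that of other genes with as few counts.

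The differences between mice, here with the group difference left in, were largely shared by the 10 genes. Each gene was centred on its mean over all libraries. The genes were chosen with the group difference known, so these counts are a description, and the share over all genes was not counted. Tributyrin replicate 2 was above the gene's mean in 10 of 10 genes and the highest mouse in 6, and Tributyrin replicate 1 was above it in 9 of 10. Vehicle replicate 1 was above it in 0 of 10 and the lowest mouse in 5. Tributyrin replicate 3 was above it in 2 of 10, and the lowest mouse in 4. As a mean of centred log2 values over the 10 genes, the vehicle mice were at -0.29, -0.12 and -0.07 and the Tributyrin mice at 0.25, 0.37 and -0.15. Thus 2 treated mice were above all vehicle mice and the third lay among them.

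With the group means removed, the correlation between 2 of the genes over the 6 libraries had a median Pearson r of 0.64 over 45 pairs, of which 42 were above 0. The median between the 10 genes and all other genes tested was 0.01. The correlation was 0.98 between *Gbp2* and *Gbp3*, 0.97 between *Igtp* and *Gbp7* and 0.92 between *Igtp* and *Irgm2*, which share exonic bases. It was 0.39 between *Tgtp1* and *Tgtp2* and -0.13 between *Irgm1* and *Iigp1*. Between IRG and GBP genes, which lie on different chromosomes, the median was 0.78 and 21 of 21 pairs were above 0. These values rest on 6 libraries with 4 residual degrees of freedom, and the points share library and depth. Without Tributyrin replicate 3 the median over the 45 pairs was 0.32.

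**Figure D4:**
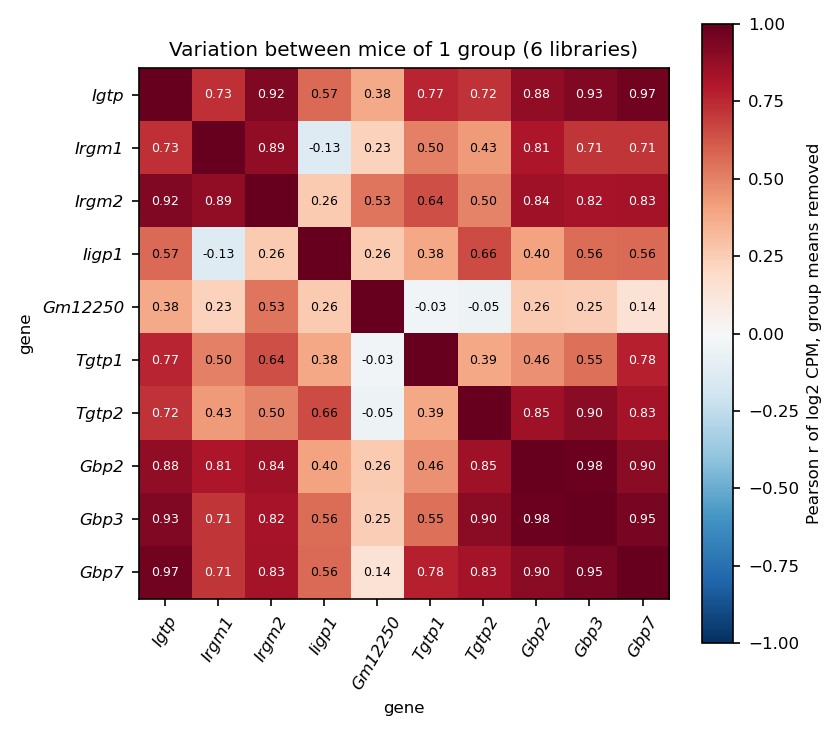
Pearson r between the 10 genes over 6 libraries with the group means removed, as a matrix with a colour scale. *Gbp2*, *Gbp3*, *Gbp7*, *Igtp* and *Irgm2* form the block of high values, and *Irgm1* with *Iigp1* (-0.13) is among the 3 pairs below 0.

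Other genes of the 2 families were mixed. Of 16 further IRG and GBP genes, 12 could be tested, 0 were called in either direction, 8 were positive and the median log2 fold change was 0.04. *Gbp6* had 61.3, 121 and 112 normalized counts with vehicle and 87.0, 211 and 187 with Tributyrin, a log2 fold change of 0.71 (standard error 0.326). Of the exon stretches of *Gbp6*, 29.35% occurred in no other gene and 64.98% were found also in *Gm43302*. It shares 1726 exonic bases with *Gm43302* on the same strand, so the value of *Gbp6* is uncertain on its own. *F830016B08Rik*, an IRG gene near *Iigp1*, had 239, 203 and 225 with vehicle and 432, 459 and 165 with Tributyrin, a log2 fold change of 0.68 (standard error 0.296). As in *Iigp1*, Tributyrin replicates 1 and 2 were the highest mice and replicate 3 the lowest. The values were 0.05 for *Gbp4*, 0.03 for *Gbp5*, 0.02 for *Ifi47* and -0.06 for *Gbp9*, and *Gbp2b*, *Gbp8*, *Gbp11* and *Irgc1* had too few counts to test. The smallest adjusted p among them was 0.999 in edgeR's quasi-likelihood test.

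Upstream of these genes, the interferons themselves were all but unseen. Of 9 ligand genes, 8 had 0 counts in every library, and *Ifng* had 1 count in 1 vehicle library. Their levels were not detectable at this depth. Of 10 receptor, JAK and STAT genes, 0 were called and 7 were negative, with a median of -0.06.

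The transcription factors and feedback inhibitors showed no common direction. Of 10 transcription factors, 5 were positive and 5 negative and 0 were called, with *Irf9* at 0.15 and *Irf1* at -0.05. Of 8 feedback inhibitors, 4 were positive, with *Socs3* at 0.50 (standard error 0.332) and *Socs1* at -0.11 (standard error 0.409), and 0 were called.

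Other targets of the interferons were counted by type. Of 18 tested interferon gamma targets, 15 were positive and 3 negative, with a median of 0.08, and 0 were called. In edgeR's test 5 had an unadjusted p under 0.05 and were higher, against 1.97% of all genes, and 0 were lower. These were *Cd274* and the MHC class II antigen presentation genes *H2-Aa*, *H2-Ab1*, *H2-Eb1* and *Cd74*. In the class II genes Tributyrin replicate 2 was the highest mouse each time, so they are not separate observations. The groups were apart in 2, *Cd274* and *H2-Ab1*, both higher, against 4.26% of all genes. They overlapped in *H2-Aa*, *H2-Eb1* and *Cd74*. The highest were genes of MHC class II antigen presentation, *H2-Ab1* (0.68, standard error 0.197) and *H2-Eb1* (0.53, standard error 0.212). *H2-Ab1* had 485, 444 and 417 normalized counts with vehicle and 549.8, 1002 and 605 with Tributyrin, so that the groups did not overlap and Tributyrin replicate 2 was far above the rest. Of 26 tested type I targets, 11 were positive and 15 negative, with a median of -0.05 and 0 called, from *Oas1a* at 0.40 to *Ifit3b* at -0.36. Among these type I targets 0 had an unadjusted p under 0.05 in edgeR's test, and the groups were apart in 1, higher with Tributyrin. The difference between the lists was not tested.

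Autophagy and inflammasome partners of the GTPases had list medians near that of all genes, while single inflammasome genes lay further out. Of 16 autophagy genes that work with IRG and GBP proteins, 9 were positive and 7 negative, with a median of 0.03 and none beyond 0.12 in size. Of 7 tested inflammasome genes downstream of GBP proteins, 4 were positive, with a median of 0.03. They ran from *Pycard*, the inflammasome adaptor, at 0.93 (standard error 0.333) to *Casp4*, the receptor for cytosolic lipopolysaccharide, at -0.37 (standard error 0.234). Neither list had a called gene.

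**Figure D5:**
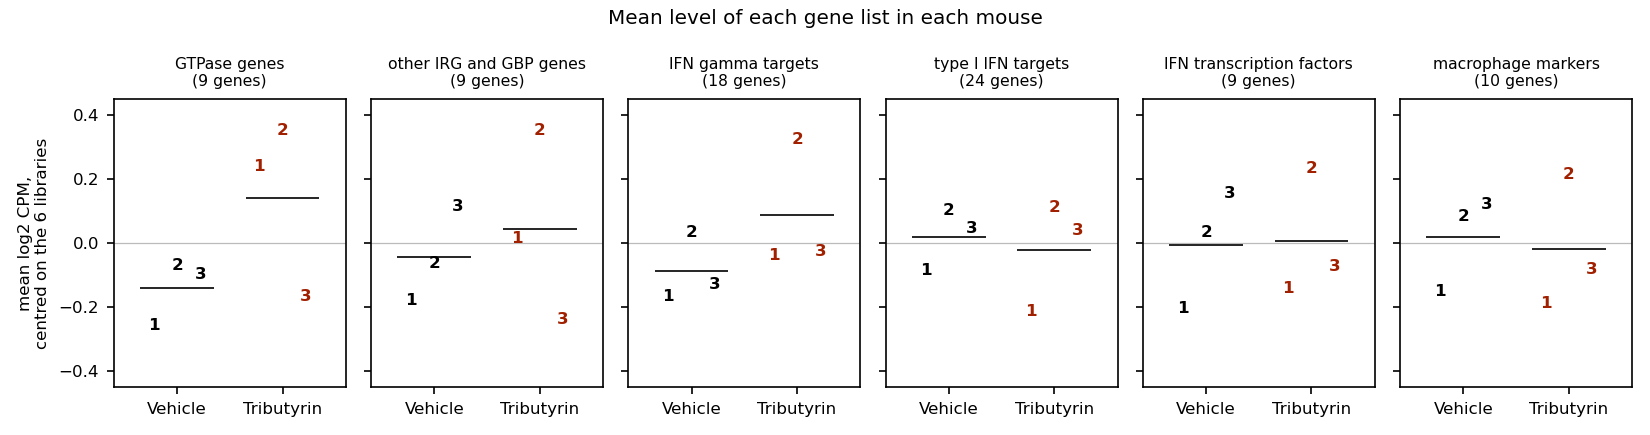
Mean centred log2 level of gene lists in each of the 6 mice, with numerals for the replicates and lines for group means. For the GTPase genes, 9 with a mean CPM of at least 1 were used, and Tributyrin replicates 1 and 2 are highest (0.24 and 0.35) while replicate 3 is at -0.17.

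By likeness to the pattern of the GTPase genes, measured as Pearson r with the mean standardized log2 value of the 10 genes over 6 libraries among 9692 other genes with a mean CPM of at least 5, the closest were *Qsox2* (r = 0.99), *Sec61a2* (0.98), *Wdr45* (0.98), *Gpatch4* (0.98), *Upf3b* (0.97) and *Sdc2* (0.97). Their differences were small, with log2 fold changes of 0.07 to 0.26. They are 1 end of a search on 6 points, in which r ran from -0.982 to 0.992 over all 9692 genes. *Qsox2*, a sulfhydryl oxidase, had 450.1, 502 and 512 normalized counts with vehicle and 579, 601 and 477 with Tributyrin, in the same order of mice as the GTPase score. Among the lists, the median r was 0.59 for 16 interferon gamma targets, 0.62 for 4 other IRG and GBP genes and 0.09 for 15 type I targets, against 0.004 over all 9692 genes. These r include the group difference by which the GTPase genes were chosen. With the group means removed the medians were 0.53, 0.75 and 0.38, against 0.02 over all, so both lists of targets lay closer together. With 6 points that share library and depth, these are descriptions.

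Markers of cell types gave the following values. Macrophage markers (10 of 10 tested, 2 positive) summed to 237 to 277 CPM with vehicle and 232 to 290.4 CPM with Tributyrin. Endothelial markers (10 of 10 tested) summed to 789 to 833 CPM with vehicle and 757 to 844 CPM with Tributyrin, and fibroblast markers (6 of 6 tested) to 743 to 799 CPM and 670 to 808 CPM. T and NK cell markers, of which 1 of 10 passed the filter, summed to 1.26 to 1.47 CPM with vehicle and 1.132 to 2.14 CPM with Tributyrin. Neutrophil markers summed to 0.946 to 1.90 CPM with vehicle and 0.522 to 1.39 CPM with Tributyrin, with *Ly6g* at 0 in every library. B cell markers were at 5.18 to 7.52 CPM and 6.62 to 6.97 CPM, adipocyte markers at 0.662 to 2.18 CPM and 0.566 to 3.00 CPM, and erythroid markers at 490.2 to 696 CPM and 383 to 941 CPM. Ranges of the groups overlapped for each of these lists, and their part in the differences between mice was not tested. With the group means removed, the median r with the GTPase score was 0.53 for 8 macrophage markers. The lowest were *Lyz2* at -0.47 and *Cd163* at 0, and the highest *Adgre1* at 0.79, *Mrc1* at 0.79 and *Cd68* at 0.75. The median was 0.52 for 6 fibroblast markers (range -0.763 to 0.732) and 0.31 for 10 endothelial markers (range -0.8 to 0.522). For 8 ventricular cardiomyocyte markers it was -0.65, with values from -0.925 to 0.655. Each list held markers of both signs.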

How the data were processed

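RNA-seq was performed on heart ventricle of 6 mice, 3 per group. Groups were taken from the sample labels. The counts deposited by the authors are whole numbers of reads per Ensembl gene without normalization. Per the submitters' processing notes, reads were trimmed with cutadapt 1.13, aligned with STAR to mm10 and counted with HTSeq 0.6.1p1. Libraries were stranded and read single-end over 50 bases. The strand setting and the handling of multiply aligned reads could not be read from the sources used here.

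Of 54232 identifiers, 54079 matched GENCODE M21, and 0 lines named no gene. In R 4.3.3, edgeR 4.0.16 was fitted to 14133 genes (filterByExpr, minimum count 10, minimum total 15, TMM scaling, FDR 10%), without covariates. For normalized counts, each library was divided by its DESeq2 size factor, and CPM and RPKM used TMM-scaled library sizes. Log2 values for spread and correlation used a prior count of 2. DESeq2 1.42.0, limma 3.58.1, other scalings and filters, a replicate block, summed overlapping genes and leaving out each library were alternatives. The atrial covariate was added after seeing the data. Figures were made with Python 3.11.15, matplotlib 3.10.9, from tables handled with pandas 2.3.3 and numpy 2.4.6. The steps were tested on simulated data.

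The genes named were the 10 GTPase genes, their families, the genes of each pathway list with the largest changes or on which the text turns, and the 6 genes most alike in pattern. Genes and lists were chosen with earlier results of these data known. Values of some single genes of the lists are left out.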

Additional observations from a re-analysis of the deposited data

How the results depend on the processing

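Over the alternatives run, *Igtp*, *Irgm1*, *Irgm2*, *Iigp1*, *Gm12250* and *Tgtp1* kept a positive log2 fold change, and *Gbp2*, *Gbp3*, *Gbp7* and *Tgtp2* took both signs. The number of genes past an FDR of 10%, 0 in edgeR's test, was 167 without the filter on low counts (0.653% of genes, among them *Igtp*, *Iigp1* and *Gm12250*), 11 with DESeq2 (0.0835%, none of the 10) and 2 with the replicate number as a block, the replicate block. Leaving out each library gave 0 to 3 genes, the highest without Tributyrin replicate 3, and again none of the 10. The causes were not tested. Deviations of same-numbered mice correlated at 0.214, 0.037 and 0.015, which does not pair them. The block changed no sign among the 10. The median residual correlation among the 10 genes ran from 0.319 to 0.79 with each library left out. Depth limits *Gm12250* and *Tgtp1*, and near-identical sequence limits *Tgtp1* and *Tgtp2*. With 3 mice per group, small differences were not detectable.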
